A study of Mus musculus with 11 samples.

Results

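The genes described here were those gained in all lines derived from the melanocyte line melan-a. They were chosen by the deposited values themselves: in a member, the lowest of the 9 libraries of the derived lines 4C, 4C11- and 4C11+ was above 0 on the log2 CPM scale (CPM, counts scaled to the size of the library) and at least 3 log2 units above the higher of the 2 melan-a libraries. Of the 14272 genes of the table, the rule held for 0.329%, and 46 of these genes are reported here. The distance of each member from melan-a is therefore a description and was not tested, while the comparisons among the 3 derived lines, which the rule did not set against each other, were tested.

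Total RNA depleted of ribosomal RNA was sequenced from cultures of 4 murine cell lines that model melanoma progression. Melan-a consists of spontaneously immortalized, nonmalignant melanocytes of C57BL/6 background and was represented by replicates 2 and 3, replicate 1 being not analysed here. From it, repeated loss and recovery of adhesion gave the pre-malignant line 4C, the non-metastatic melanoma line 4C11- and the metastatic melanoma line 4C11+, with 3 libraries each, and each derived line was a single line, so that a trait of the line and a trait of the stage cannot be told apart. The medium of melan-a alone held PMA (200 nM), a phorbol ester that activates protein kinase C, and the derived lines were cultured in the same medium without it, so the medium and the line cannot be told apart. Replicates were parallel cultures of 1 line, and p-values measure only the spread between such cultures.

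Melanocytes are pigment cells of neural crest origin, and their identity rests on factors such as MITF and SOX10 that keep pigment genes on. Hox genes encode homeobox factors, lie in clusters, and record the position of a cell along the body axis in many lineages, where the chromatin of a cluster can be held silent or active over many divisions. Products of matrix, adhesion and cytoskeletal genes set how a cell attaches and moves, and the derived lines were selected for growth after loss of adhesion.

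The 11 libraries appeared shallow. From the steps that single reads leave among the low values, the rough depth of the melan-a libraries was 3.5 and 5.82 M reads. That of 4C was 5.67 to 7.08 M, that of 4C11- was 4.58 to 7.42 M and that of 4C11+ was 4.07 to 5.47 M. These depths take the values as plain log2 CPM, although the 11 libraries shared the same highest value, as after a further normalization. In melan-a, genes at 0 reads numbered 399 in replicate 2 and 559 in replicate 3, against the order of the 2 depths. Checked against the label, the 17 melanocyte markers in the table, among them Tyr, Tyrp1 and Mlana, summed to 5258 to 11760 CPM in melan-a and to 15930 to 19910 CPM in 4C11+. The sum was 419 to 1397 CPM in 4C and 117 to 550 CPM in 4C11-, where 6 and 7 of the markers, Tyr and Oca2 in both lines, stayed at or under 3 reads in all libraries. The markers were thus low in 4C and 4C11- and not in 4C11+, and the part of this difference in the levels of the members was not tested. In bulk RNA, fewer cells that express a gene and less RNA per cell cannot be told apart.

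Most members were at the bottom of the scale in melan-a. In 37 of the 46, neither melan-a library was above 3 reads, and in 24 both were at 0 reads, as were 266 genes (1.86%) of the table. The other 9, namely Phgdh, Itga9, Vill, Emilin1, Rab11fip4, Gstp2, Arhgdib, Mtus2 and Tmem267, had between 4 and 23 reads in the higher melan-a library. Replicate 2 held the higher value in 8 of these 9, with Tmem267 as the exception. Both melan-a libraries lay below all 9 derived libraries in 4.90% of the genes of the table, a share that the 46 members are a part of by construction.

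The gap between the lowest derived library and the higher melan-a library ranged from 3.02 to 7.35 log2 units over the members, with a median of 4.09. The mean of the 3 derived lines exceeded the melan-a mean by a median of 6.14 log2 units and at least 3.78, the median being 4.84 with the melan-a value of the 37 members at or under 3 reads set to that of 3 reads, against -0.06 over all genes. Just inside the threshold were Wnt6, Sall4 and Hoxa11os, each with a gap of 3.02, and each with 4 reads in its lowest 4C11+ library. Just outside it were Trim71 with a gap of 2.96, Gng11 with 2.94 and Slc2a4 with 2.85. The number of members rested on melan-a: 112 genes met the rule without melan-a replicate 2 and 74 without replicate 3, as leaving out a library can only loosen the rule. The filter of the deposited table had required 1 CPM in at least 4 libraries. A member exceeded 1 CPM in every derived library on the deposited scale, so the number of members did not rest on this filter. The filter could not retain a gene present in melan-a alone, which limits the count of the reverse rule. The reverse rule found 1 gene.

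**Figure D1:**
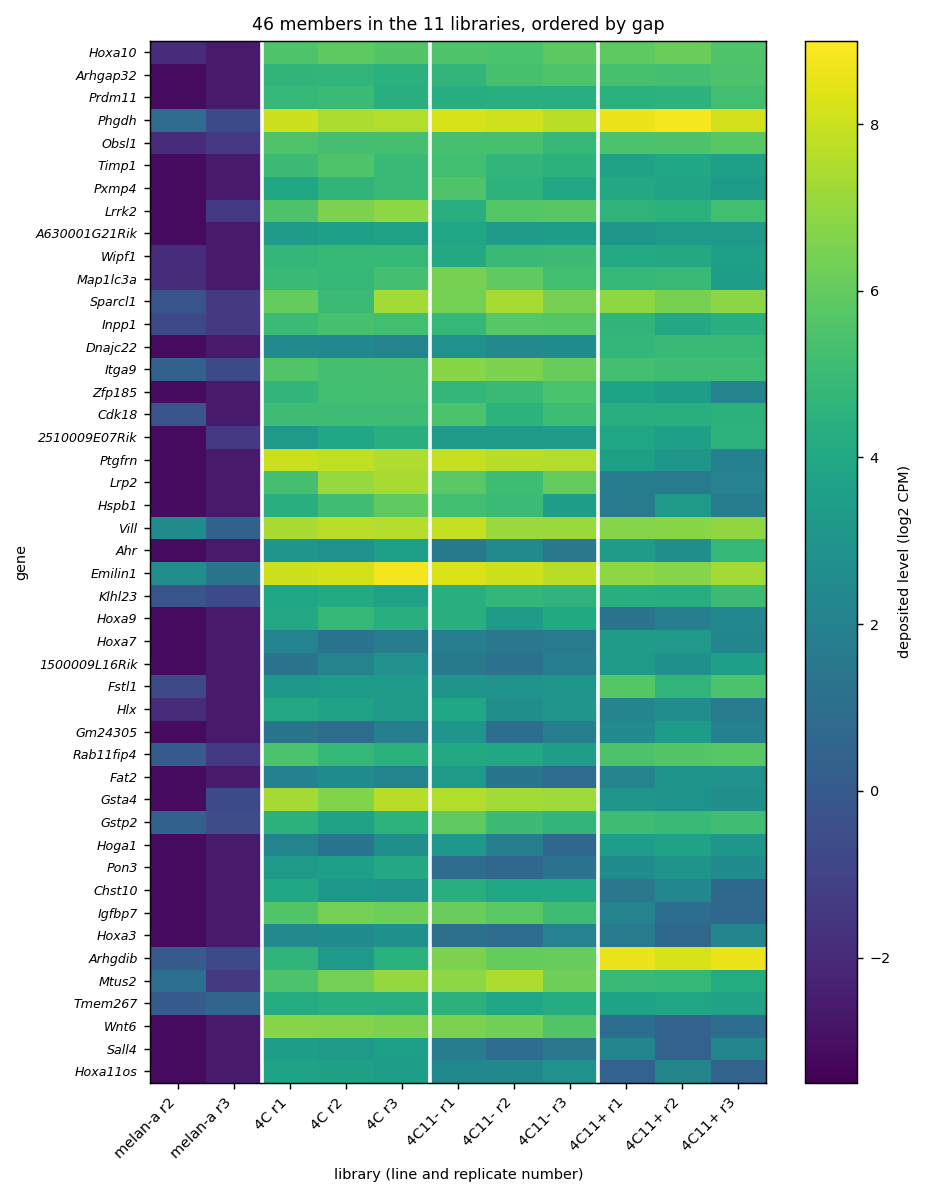
Level of the 46 members (rows, ordered by the gap between the lowest derived library and the higher melan-a library) in the 11 libraries (columns) on the deposited log2 CPM scale. The melan-a columns are dark throughout, with Emilin1 and Vill as the highest members there, and several rows, such as Ptgfrn, Lrp2, Igfbp7, Gsta4 and Wnt6, darken again in 4C11+.

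Levels between genes can be compared only per length. Divided by exon length, the mean level over the derived lines was highest in Phgdh, at 6.77 log2 CPM per kilobase, followed by Arhgdib at 5.51, Gsta4 at 5.47, Emilin1 at 5.45 and Vill at 5.12. It was lowest in Fat2, a large protocadherin, at -1.62. Of the members, 44 were protein coding, and the others were the noncoding RNA Hoxa11os and the small nuclear RNA Gm24305, whose reads may be shared with near-identical copies and whose level is uncertain.

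Members lay on 14 chromosomes, with 7 each on chromosomes 1, 2 and 6. These chromosomes held 15.2% of the members each and 6.41%, 7.89% and 5.46% of the genes of the table. On chromosome 6, the members Hoxa3, Hoxa7, Hoxa9, Hoxa10 and Hoxa11os all lay in the HoxA cluster. Elsewhere, less than 1 Mb separated Wnt6 from Obsl1 on chromosome 1, Lrp2 from Klhl23 and Pxmp4 from Map1lc3a on chromosome 2, and Itga9 from Vill on chromosome 9. In these intervals 18, 5, 8 and 2 genes of the table lay between the members, of which 3, 1, 2 and 0 had all derived libraries above melan-a.

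RefSeq promoter windows of the GRCm38.p6 build, 250 bases before to 50 after the gene start, were matched by symbol for 37 of the 46 members and for 9928 genes of the table. Where a gene had more than 1 window, the first listed was used. Among members this held for Hoxa10, Klhl23, Wipf1, Arhgdib, Arhgap32, Mtus2 and Tmem267, whose other windows were not examined. The RefSeq start was within 1 kb of the GENCODE gene start in 31 of the 37 members. It lay 105 kb away in Itga9, 99.5 kb in Arhgap32, 24.3 kb in Fat2, 3.80 kb in Gstp2, 3.72 kb in Hoxa9 and 3.28 kb in Hoxa7, so their windows describe the RefSeq start alone. CpG dinucleotides, whose density separates promoters of broadly used genes from those of restricted ones, were fewer in the windows of the members. The median count was 14 in members and 21 in all genes, and the median ratio of observed to expected CpG was 0.596 and 0.772. A ratio of at least 0.6 was found in 18 of 37 members (48.6%) and in 73.3% of all genes. Of the 11 members lower in 4C11+ than in both other derived lines that had a window, 7 reached 0.6, with a median of 0.652, and of the 26 others 11 did, with a median of 0.514.

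**Figure D2:**
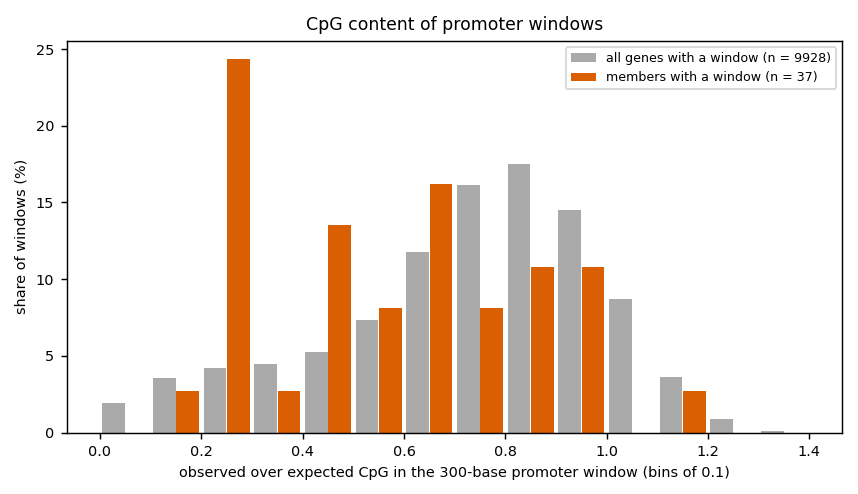
Share of promoter windows (%) by their ratio of observed to expected CpG, in bins of 0.1, for the 37 members (orange) and the 9928 genes of the table (grey) that had a window. A group of 9 members, 24.3% against 4.23% of all genes, lies in the bin from 0.2 to 0.3.

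The 250 bases before the start are shown for neighbouring HoxA members, for Timp1 and for members that were far lower in 4C11+ than in the other derived lines, to show stretches with few and with many CpG. Each is written 5′ to 3′ in the direction of the gene, with CpG in capitals, and overlaps no exon of the GENCODE vM21 annotation. The Hoxa9 stretch lies within the Hoxa9 gene as GENCODE draws it, upstream of the start given by RefSeq.
Hoxa10, chr6:52240855-52241104, minus strand: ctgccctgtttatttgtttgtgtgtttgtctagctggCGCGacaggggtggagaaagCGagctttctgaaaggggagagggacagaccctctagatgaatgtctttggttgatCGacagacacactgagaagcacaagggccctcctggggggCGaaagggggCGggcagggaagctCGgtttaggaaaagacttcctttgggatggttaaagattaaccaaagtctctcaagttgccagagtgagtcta
Hoxa9, chr6:52227371-52227620, minus strand: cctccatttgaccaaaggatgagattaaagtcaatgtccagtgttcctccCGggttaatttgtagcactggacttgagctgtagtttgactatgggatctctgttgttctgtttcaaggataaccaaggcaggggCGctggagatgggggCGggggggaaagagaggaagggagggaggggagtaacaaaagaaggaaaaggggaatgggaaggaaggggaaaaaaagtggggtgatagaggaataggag
Timp1, chrX:20869916-20870165, plus strand: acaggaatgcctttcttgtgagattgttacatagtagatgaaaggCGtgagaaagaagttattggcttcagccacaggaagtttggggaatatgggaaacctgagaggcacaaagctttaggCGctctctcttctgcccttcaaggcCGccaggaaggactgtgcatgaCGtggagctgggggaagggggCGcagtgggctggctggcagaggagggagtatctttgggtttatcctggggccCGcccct
Igfbp7, chr5:77408046-77408295, minus strand: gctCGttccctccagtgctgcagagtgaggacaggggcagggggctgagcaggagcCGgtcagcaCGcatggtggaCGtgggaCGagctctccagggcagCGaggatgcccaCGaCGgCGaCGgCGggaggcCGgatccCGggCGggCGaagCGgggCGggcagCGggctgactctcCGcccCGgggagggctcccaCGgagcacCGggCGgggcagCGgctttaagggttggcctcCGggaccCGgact
Wnt6, chr1:74771642-74771891, plus strand: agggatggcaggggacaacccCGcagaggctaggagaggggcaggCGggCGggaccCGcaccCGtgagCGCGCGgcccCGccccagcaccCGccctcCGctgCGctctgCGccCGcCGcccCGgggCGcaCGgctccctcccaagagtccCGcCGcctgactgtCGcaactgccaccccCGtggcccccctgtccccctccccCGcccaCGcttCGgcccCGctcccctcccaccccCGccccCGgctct
These stretches hold 7 CpG in Hoxa10, 3 in Hoxa9 and 6 in Timp1, against 26 in Igfbp7 and 28 in Wnt6.

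Short motifs were counted on both strands of the 300-base windows, none of them is part of another, and a match describes letters and not a bound site. The AP-1 motif TGANTCA was in 4 of 37 members (10.8%), namely Pxmp4, Pon3, Itga9 and Gstp2, and in 4.72% of all windows. The windows of Itga9 and Gstp2 are among the 6 far from the GENCODE start. The E-box CATGTG was in 6 members (16.2%) and 8.37% of all windows, and the E-box CACGTG in 1, Cdk18 (2.70%), and 10.2%. The GC box GGGCGG, part of many CpG-rich promoters, was in 20 members (54.1%) and 65.1% of all windows. For the TATA box TATAAA the numbers were 4 members (10.8%) and 6.80%, for CCAAT 14 members (37.8%) and 39.0%, and for the TEAD motif GGAATG 5 members (13.5%) and 12.0%.

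The largest gap to melan-a was that of a transcription factor of the HoxA cluster. Hoxa10, a homeobox factor of posterior position (chr6:52231197-52240854, minus strand), was at -1.90 and -2.58 log2 CPM in melan-a, corresponding to 1 and 0 reads. It was at 5.54, 5.91 and 5.67 in 4C, 5.56, 5.45 and 5.85 in 4C11- and 5.91, 6.20 and 5.55 in 4C11+. The derived libraries spanned 0.75 log2 units and those of the 3 lines overlapped, and their mean was at least 70.1-fold above melan-a. Between the derived lines, limma gave differences of -0.09 ± 0.29 for 4C11- minus 4C and 0.27 ± 0.29 for 4C11+ minus 4C11- (log2, SE), with adjusted p = 0.932 and 0.518.

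Hoxa9, its neighbour (chr6:52223100-52231089), was at 0 reads in both melan-a libraries. It was at 4.03, 4.84 and 4.33 log2 CPM in 4C, 4.36, 3.38 and 4.10 in 4C11- and 1.33, 1.90 and 2.32 in 4C11+, where all libraries lay below those of the other derived lines. Hoxa9 fell by 2.10 ± 0.42 log2 units from 4C11- to 4C11+ (limma adjusted p = 0.00293) and by 2.55 ± 0.42 from 4C to 4C11+ (limma adjusted p = 0.000741). The neighbouring Hoxa10 and Hoxa9 thus shared their absence from melan-a and differed in 4C11+.

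Hoxa7, in contrast, was higher in 4C11+, at 3.37, 3.24 and 2.23 log2 CPM against 1.83, 1.51 and 1.66 in 4C11- and 2.13, 1.31 and 1.77 in 4C, all above the 0 reads of melan-a. The 4C11+ libraries did not overlap those of 4C11-, with a difference of 1.28 ± 0.45 log2 units and a limma adjusted p of 0.049, which was 0.187 without 4C11+ replicate 1. Hoxa3 lay low in all derived lines, at 2.41, 2.55 and 2.76 in 4C, 1.13, 0.96 and 2.03 in 4C11- and 1.70, 0.67 and 2.23 in 4C11+, and passed none of the tests. Hoxa11os, a noncoding RNA that overlaps Hoxa11 on the opposite strand, was at 3.73, 3.65 and 3.52 in 4C, 2.33, 2.32 and 2.83 in 4C11- and 0.44, 2.24 and 0.48 in 4C11+. It fell by 2.58 ± 0.51 log2 units from 4C to 4C11+ (limma adjusted p = 0.00244). Whether the counting used the strand is not given in the sources used here, so the reads of Hoxa11 and Hoxa11os, and of the HoxA genes and their antisense transcripts in general, cannot be told apart.

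Most of the other Hox genes were also higher in the mean of the derived lines, although 9 of the 17 called were at or under 3 reads in all 4C11+ libraries. The table held 14 genes from Hoxa2 to Hoxa13, a stretch of 98.5 kb, of which 5 were members. All derived libraries were above melan-a in 10 of the 14, against 4.90% of all genes. Among these 10 was Hoxa11, at -2.44 in 4C11+ replicate 1 against -2.58 in the higher melan-a library. Both values stand for 0 reads, so Hoxa11 was not resolved from melan-a in that library. Of the 24 Hox genes analysed, 23 were at or under 3 reads in melan-a. Outside the 4 members that encode Hox proteins, 17 of 20 were higher in the mean of the derived lines than in melan-a and 0 lower (limma adjusted p under 0.05), against 6.28% and 5.71% of the genes outside the members. At an unadjusted p under 0.05 these counts were 19 and 0. Of the 20 genes, 19 were at or under 3 reads in melan-a. The filter of 1 CPM in at least 4 libraries kept such genes only through their levels in derived libraries. A call of lower was thus all but closed to them and a call of higher favoured, so the shares of all genes are no fair background. The median difference of the 20 was 3.37 log2 units, or 1.70 with genes at or under 3 reads in melan-a set to 3 reads. The other 3 were Hoxb4, Hoxc5 and Hoxc8.

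Many of the other Hox genes were at or near 0 reads in 4C11+. All 9 HoxC genes in the table were at or under 3 reads in the 4C11+ libraries, as were 2 of 6 HoxB genes and 1 of the 5 HoxA genes outside the members. Hoxc9 was at 4.21, 4.25 and 3.78 log2 CPM in 4C and 4.91, 4.26 and 4.14 in 4C11-, and at -2.44, -2.44 and -2.58 in 4C11+, the value of 0 reads. Hoxa11 was at 5.25, 4.63 and 4.45 in 4C and 3.44, 3.59 and 3.41 in 4C11-, with -2.44, 2.72 and -1.16 in 4C11+. Hoxb13 was at 5.92, 6.10 and 5.86 in 4C and 6.40, 5.65 and 5.60 in 4C11-, and at 0.44, 0.67 and 1.32 in 4C11+. Over the 24 Hox genes, 18 were lower and 1, Hoxa7, was higher in 4C11+ than in 4C11-, against 15.4% and 15.6% of all genes. Of the 24, 23 were at or under 3 reads in melan-a. The filter of 1 CPM in at least 4 libraries could not retain such a gene if present only in 4C11+, with its 3 libraries. It could retain one present only in 4C and 4C11-. A call of lower was thus favoured, and the shares of all genes are no fair background here either. Since the rule required every 4C11+ library to be above 0, the presence of the HoxA members in that line is what chose them and no finding.

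**Figure D3:**
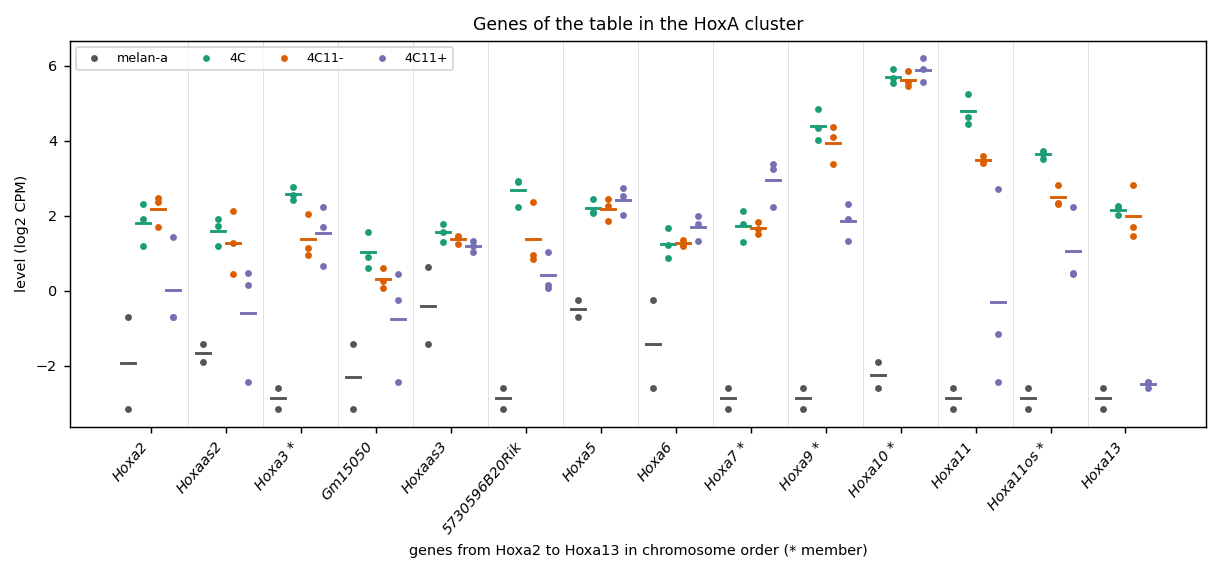
Level (log2 CPM) of the 14 genes of the table from Hoxa2 to Hoxa13, in chromosome order, in each library (points) and as the mean of each line (bars), with members marked by an asterisk. Hoxa10 is above 5 log2 CPM in all 9 derived libraries, and Hoxa9, Hoxa11, Hoxa11os and Hoxa13 are lower in 4C11+ than in 4C.

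The members were then compared between the derived lines, to learn which of the gained genes kept their level along the series. The rule favours genes with no low derived line, so counts of differences are read against all genes. Between 4C and 4C11-, 1 member was higher and 1 lower in 4C11-, against 1.26% and 0.406% of all genes. From 4C11- to 4C11+, 8 members (17.4%) were higher and 15 (32.6%) lower, against 15.6% and 15.4%. From 4C to 4C11+, 3 (6.52%) were higher and 16 (34.8%) lower, against 17.1% and 14.6%. In 4C11+, 3 members were higher and 12 lower than in both other derived lines, where all genes gave 11.6% and 11.6%. The median difference of the members was -0.14 log2 units for 4C11- minus 4C, -0.43 for 4C11+ minus 4C11- and -0.63 for 4C11+ minus 4C, against 0.01, 0.12 and 0.08 over all genes. The 11 fibroblast markers, with sums of 4337 to 5467 CPM (4C), 4068 to 4947 CPM (the 4C11- line) and 2038 to 2408 CPM (the 4C11+ line), and the melanocyte markers moved between the same lines, and their part in these counts was not tested.

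Of the 44 differences called in 27 members, 29 held in all 17 alternative settings, and 15 were lost in at least 1 of the fits with a library left out. The other 19 members (41.3%) passed none of the 3 tests, as did 60.5% of all genes. The lowest line was 4C11+ in 24 members, 4C11- in 14 and 4C in 8, and the highest line was 4C in 19, 4C11+ in 17 and 4C11- in 10. The derived libraries spanned under 1 log2 unit in 5 members, namely Hoxa10, Prdm11, Obsl1, A630001G21Rik and Tmem267. They spanned over 4 in 7, namely Ptgfrn, Lrp2, Hspb1, Gsta4, Igfbp7, Arhgdib and Wnt6.

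**Figure D4:**
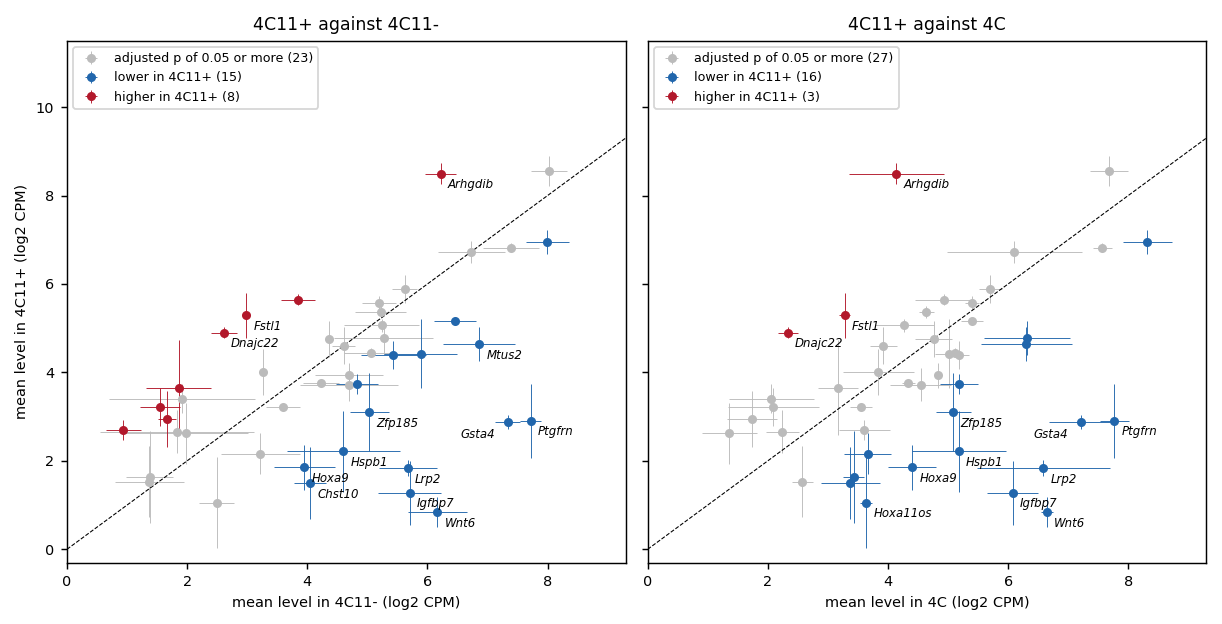
Mean level (log2 CPM) of each member in 4C11+ against 4C11- (left) and against 4C (right), with bars for the SD over 3 libraries and a dashed line of equal level. Blue members were lower and red members higher in 4C11+ by limma (adjusted p under 0.05), and Wnt6, Igfbp7, Lrp2, Ptgfrn and Gsta4 lie farthest below the line while Arhgdib, Fstl1 and Dnajc22 lie above it in both panels.

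Among secreted and matrix proteins, Wnt6, Igfbp7, Timp1 and Emilin1 were lower in 4C11+, Fstl1 was higher, and Sparcl1 passed no test. Wnt6 encodes a secreted WNT ligand and was at 0 reads in both melan-a libraries. It was at 6.71, 6.69 and 6.53 log2 CPM in 4C and 6.53, 6.34 and 5.61 in 4C11-, and at 1.04, 0.44 and 1.04 in 4C11+, equal to 7, 4 and 9 reads. No 4C11+ library came near those of the other derived lines, and the fall was 5.33 ± 0.34 log2 units from 4C11- (limma adjusted p = 5.74e-07) and 5.80 ± 0.34 from 4C (limma adjusted p = 2.66e-07).

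Igfbp7, which encodes a secreted protein that binds insulin-like growth factors, had the same shape. Both melan-a libraries were at 0 reads, 4C was at 5.59, 6.38 and 6.26, 4C11- at 6.16, 5.82 and 5.14 and 4C11+ at 2.09, 1.04 and 0.69 log2 CPM. Igfbp7 fell by 4.43 ± 0.44 log2 units from 4C11- to 4C11+ (limma adjusted p = 1.79e-05), without overlap. Its promoter and that of Wnt6 were the CpG-rich stretches shown above.

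Timp1, an inhibitor of matrix metalloproteases (chrX:20870166-20874735), had 0 reads in both melan-a libraries. It was at 5.08, 5.54 and 4.94 in 4C, 5.22, 4.73 and 4.55 in 4C11- and 3.69, 4.00 and 3.56 log2 CPM in 4C11+, the lowest of the derived lines, and on average at least 31.6-fold above melan-a. The fall to 4C11+ was 1.44 ± 0.33 log2 units from 4C (limma adjusted p = 0.00589) and 1.09 ± 0.33 from 4C11- (limma adjusted p = 0.0259, which was 0.0859 without 4C11+ replicate 1). Emilin1, a glycoprotein of elastic fibres and a ligand of alpha 9 integrin, was among the members present in melan-a, at 2.65 and 1.29. It reached 8.03, 8.13 and 8.78 in 4C, 8.33, 8.03 and 7.63 in 4C11- and 6.86, 6.73 and 7.24 in 4C11+, a mean 55.0-fold above melan-a. Emilin1 fell by 1.37 ± 0.35 log2 units from 4C to 4C11+ (limma adjusted p = 0.0114, which was 0.0564 without 4C replicate 3) and by 1.05 ± 0.35 from 4C11- (limma adjusted p = 0.0403, which was 0.131 without 4C11+ replicate 2).

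Fstl1, a secreted glycoprotein related to follistatin, was at 3.18, 3.33 and 3.34 log2 CPM in 4C and 2.97, 2.91 and 3.06 in 4C11-, and at 5.69, 4.72 and 5.47 in 4C11+, all above the melan-a values of -0.72 and -2.58. The 4C11+ libraries were the highest, and Fstl1 rose by 2.31 ± 0.46 log2 units from 4C11- (limma adjusted p = 0.00258) and by 2.01 ± 0.46 from 4C (limma adjusted p = 0.00572). Sparcl1, a matricellular protein related to SPARC, was at 6.06, 5.00 and 7.24 in 4C, 6.37, 7.37 and 6.45 in 4C11- and 6.90, 6.43 and 6.84 in 4C11+. The 4C libraries of Sparcl1 spread over more than those of the other lines (SD 1.12, n = 3), and the lines overlapped.

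Of the members at the cell surface, Ptgfrn and Lrp2 fell in 4C11+ while Itga9 was highest in 4C11-. Ptgfrn, a transmembrane protein that associates with tetraspanins, was at 7.77 ± 0.25 log2 CPM (mean ± SD, n = 3) in 4C, and at 7.92, 7.65 and 7.58 in 4C11-, at 3.60, 3.13 and 1.97 in 4C11+ and at 0 reads in melan-a. It fell by 4.81 ± 0.38 log2 units from 4C11- to 4C11+ (limma adjusted p = 3.04e-06) and by 4.87 ± 0.38 from 4C (limma adjusted p = 2.49e-06). The mean of the log2 levels of the derived lines was at least 92.0-fold above melan-a. By line, the lower bound of the difference was 8.16 log2 units in 4C, 8.11 in 4C11- and 3.30 in 4C11+. Lrp2, the endocytic receptor megalin, was at 5.32, 7.08 and 7.35 in 4C, 5.81, 5.14 and 6.07 in 4C11- and 1.79, 1.68 and 2.03 in 4C11+, without overlap between 4C11+ and the others. It fell by 3.84 ± 0.49 log2 units from 4C11- (limma adjusted p = 0.000131).

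Itga9, the alpha 9 integrin subunit, was at 0.40 and -0.70 log2 CPM in melan-a. It was at 5.61, 5.29 and 5.30 in 4C, 6.78, 6.52 and 6.09 in 4C11- and 5.26, 5.11 and 5.13 in 4C11+. The 4C11- libraries were the highest, and Itga9 fell by 1.29 ± 0.31 log2 units from 4C11- to 4C11+ (limma adjusted p = 0.00861). The difference of 1.06 ± 0.31 between 4C11- and 4C had a limma adjusted p of 0.137, although their libraries did not overlap. Fat2 lay between 0.85 and 3.27 in the derived libraries and passed no test.

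Members linked to the cytoskeleton, to small GTPase signalling and to trafficking were grouped by hand, and those that changed did so in both directions. Arhgdib, an inhibitor that holds small GTPases in their GDP-bound form and is best known from blood cells, was at 0.06 and -0.70 log2 CPM in melan-a, 4 and 2 reads. It was at 4.68, 3.23 and 4.50 in 4C, 6.51, 6.05 and 6.10 in 4C11- and 8.62, 8.22 and 8.63 in 4C11+, so that the libraries of the 3 derived lines followed each other without overlap. Arhgdib rose by 2.08 ± 0.38 log2 units from 4C to 4C11- (limma adjusted p = 0.0184, which was 0.0692 without 4C11- replicate 2) and by 2.27 ± 0.38 from 4C11- to 4C11+ (limma adjusted p = 0.00084). Between 4C and 4C11+ the rise was 4.35 ± 0.38 log2 units (limma adjusted p = 5.57e-06).

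Arhgap32, which stimulates GTP hydrolysis by small GTPases, was at 0 reads in melan-a and at 4.66, 4.75 and 4.50 in 4C, 4.75, 5.34 and 5.58 in 4C11- and 5.34, 5.26 and 5.53 log2 CPM in 4C11+. It had the largest gap after Hoxa10, passed no test between the derived lines and was on average at least 44.4-fold above melan-a. Obsl1, a cytoskeletal adaptor related to obscurin, spanned under 1 log2 unit, at 5.54, 5.33 and 5.33 in 4C, 5.34, 5.37 and 4.87 in 4C11- and 5.46, 5.49 and 5.75 in 4C11+, against -1.90 and -1.42 in melan-a.

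Zfp185, a LIM-domain protein of the actin cytoskeleton, was at 4.75, 5.24 and 5.27 in 4C, 4.78, 4.94 and 5.39 in 4C11- and 3.74, 3.48 and 2.09 log2 CPM in 4C11+. It fell by 1.93 ± 0.44 log2 units from 4C11- (limma adjusted p = 0.00604) and by 1.98 ± 0.44 from 4C (limma adjusted p = 0.00503). Mtus2, a microtubule-associated protein, was at 1.05 and -1.42 in melan-a and at 6.31 ± 0.76 in 4C, 6.86 ± 0.60 in 4C11- and 4.64 ± 0.39 in 4C11+ (SD, n = 3). It fell by 2.22 ± 0.59 from 4C11- to 4C11+ (limma adjusted p = 0.0137, which was 0.0595 without 4C11- replicate 2) and by 1.67 ± 0.59 from 4C (limma adjusted p = 0.0491, which was 0.181 without 4C replicate 3). Rab11fip4, an effector of RAB11 in endosome recycling, was at 4.93 ± 0.49 in 4C, 3.85 ± 0.29 in 4C11- and 5.65 ± 0.11 in 4C11+, and rose by 1.80 ± 0.40 from 4C11- to 4C11+ (limma adjusted p = 0.00521).

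Wipf1, Vill and Klhl23 passed no test between the derived lines. Wipf1, a partner of WASP proteins in actin assembly, was at 4.83 ± 0.07 log2 CPM in 4C, 4.69 ± 0.57 in 4C11- and 3.93 ± 0.27 in 4C11+ (SD, n = 3). Vill, a villin-like protein, was at 2.58 and 0.40 in melan-a, the highest melan-a level after Emilin1, and at 7.57 ± 0.16, 7.39 ± 0.46 and 6.82 ± 0.10 in 4C, 4C11- and 4C11+. Klhl23, a kelch-repeat protein, was at 3.92 ± 0.22, 4.60 ± 0.19 and 4.61 ± 0.41 in the same order.

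Of the other transcription factors, Ahr, Sall4 and Hlx changed between derived lines and Prdm11 passed no test. Prdm11, of the PR-domain family, was at 0 reads in melan-a and at 4.85, 5.02 and 4.41 in 4C, 4.29, 4.38 and 4.40 in 4C11- and 4.49, 4.58 and 5.23 log2 CPM in 4C11+, within 1 log2 unit over all derived libraries. Ahr, the receptor for aryl hydrocarbons, was at 3.04, 2.91 and 3.55 in 4C, 1.57, 2.49 and 1.51 in 4C11- and 3.41, 2.72 and 4.83 in 4C11+, and rose by 1.80 ± 0.54 from 4C11- to 4C11+ (limma adjusted p = 0.0259, which was 0.0922 without 4C11+ replicate 3). Sall4, a zinc finger factor of pluripotent cells, was at 3.48, 3.23 and 3.57 in 4C, 1.73, 0.96 and 1.45 in 4C11- and 2.24, 0.44 and 2.23 in 4C11+, with 18, 4 and 24 reads in the last. Sall4 fell by 1.79 ± 0.53 from 4C to 4C11+ (limma adjusted p = 0.0227, which was 0.0955 without 4C11+ replicate 2). Hlx, a homeobox factor outside the Hox clusters, was at 3.66 ± 0.39 in 4C, 3.22 ± 0.65 in 4C11- and 2.17 ± 0.46 in 4C11+ (SD, n = 3), and fell by 1.49 ± 0.45 from 4C to 4C11+ (limma adjusted p = 0.0251, which was 0.0791 without 4C replicate 2).

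Metabolic and detoxifying enzymes included the most abundant member. Phgdh, which catalyses the first step of serine synthesis from glycolysis (chr3:98313170-98339990), was at 0.87 and -0.70 log2 CPM in melan-a, 7 and 2 reads. It was at 8.04, 7.45 and 7.55 in 4C, 8.26, 8.10 and 7.68 in 4C11- and 8.65, 8.82 and 8.17 in 4C11+, on average 256-fold above melan-a. Phgdh passed no test between the derived lines, with a difference of 0.87 ± 0.37 log2 units for 4C11+ minus 4C (limma adjusted p = 0.0933).

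Gsta4, a glutathione transferase for products of lipid peroxidation, was at 7.31, 6.64 and 7.67 in 4C, 7.57, 7.27 and 7.17 in 4C11- and 2.88 ± 0.15 log2 CPM (mean ± SD, n = 3) in 4C11+, against -3.15 and -0.70 in melan-a. It fell by 4.46 ± 0.51 log2 units from 4C11- to 4C11+ (limma adjusted p = 5.37e-05), without overlap. Gstp2 was at 4.27 ± 0.50 in 4C, 5.24 ± 0.63 in 4C11- and 5.07 ± 0.14 in 4C11+ (SD, n = 3). Its reads may be split with the near-identical Gstp1, so its level is uncertain.

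Pon3, a lactonase of the paraoxonase family, was lowest in 4C11-, at 0.85, 0.70 and 1.26 log2 CPM, against 3.22, 3.55 and 4.06 in 4C and 2.59, 2.96 and 2.54 in 4C11+, and at 0 reads in melan-a. It fell by 2.67 ± 0.40 log2 units from 4C to 4C11- (limma adjusted p = 0.00588) and was higher by 1.76 ± 0.40 in 4C11+ than in 4C11- (limma adjusted p = 0.00621), with no overlap between the lines. Chst10, a carbohydrate sulfotransferase, was at 3.37 ± 0.49 (mean ± SD, n = 3) in 4C, 4.35, 3.83 and 3.97 in 4C11- and 1.48, 2.32 and 0.69 in 4C11+, and fell by 2.55 ± 0.47 from 4C11- to 4C11+ (limma adjusted p = 0.00172). Pxmp4, a peroxisomal membrane protein, and Hoga1, a mitochondrial enzyme of hydroxyproline breakdown, passed no test, with means of 4.55, 4.69 and 3.72 and of 2.05, 1.92 and 3.41 in 4C, 4C11- and 4C11+.

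Chaperones and signalling proteins completed the set. Hspb1, the small heat shock protein HSP27, was at 4.40, 5.17 and 5.97 log2 CPM in 4C, 5.24, 5.04 and 3.52 in 4C11- and 1.60, 3.28 and 1.77 in 4C11+, and fell by 2.39 ± 0.60 from 4C11- (limma adjusted p = 0.0104, which was 0.0504 without 4C11+ replicate 1) and by 2.97 ± 0.60 from 4C (limma adjusted p = 0.00282). Dnajc22, a co-chaperone with a J domain, moved the other way, at 2.49, 2.36 and 2.15 in 4C, 2.83, 2.41 and 2.60 in 4C11- and 4.76, 4.97 and 4.98 in 4C11+. It rose by 2.29 ± 0.34 from 4C11- (limma adjusted p = 0.000335) and by 2.57 ± 0.34 from 4C (limma adjusted p = 0.000134). Map1lc3a, an LC3 protein of autophagosomes, was at 4.93, 4.85 and 5.27 in 4C, 6.45, 5.96 and 5.24 in 4C11- and 4.83, 4.93 and 3.52 in 4C11+, and fell by 1.46 ± 0.44 from 4C11- (limma adjusted p = 0.0248, which was 0.0829 without 4C11+ replicate 3).

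Of the kinases, Lrrk2, whose variants are known from Parkinson's disease, was at 5.51, 6.55 and 6.87 in 4C, 4.33, 5.72 and 5.78 in 4C11- and 4.65, 4.47 and 5.21 log2 CPM in 4C11+. The difference of -1.53 ± 0.54 between 4C11+ and 4C had a limma adjusted p of 0.0492, which was 0.174 without 4C replicate 3. Cdk18, a cyclin-dependent kinase, was at 5.10, 5.14 and 5.12 in 4C, 5.46, 4.59 and 5.12 in 4C11- and 4.40, 4.39 and 4.56 in 4C11+, where all libraries were below those of the other lines, but passed no test (limma adjusted p = 0.321 against 4C). Inpp1, an inositol polyphosphate phosphatase, was at 5.19 ± 0.17 in 4C, 5.43 ± 0.54 in 4C11- and 4.38 ± 0.32 in 4C11+ (SD, n = 3), and fell by 1.05 ± 0.34 from 4C11- (limma adjusted p = 0.0368, which was 0.142 without 4C11- replicate 2). Members without a well described role were A630001G21Rik, 2510009E07Rik, 1500009L16Rik, Tmem267 and Gm24305. Of these 1500009L16Rik rose by 1.67 ± 0.48 from 4C11- to 4C11+ (limma adjusted p = 0.0203, which was 0.0778 without 4C11- replicate 2), and the other 4 passed no test. A630001G21Rik and Tmem267 spanned under 1 log2 unit, with derived means of 3.56, 3.59 and 3.21 and of 4.34, 4.23 and 3.76 in 4C, 4C11- and 4C11+, and 2510009E07Rik was at 3.84, 3.27 and 4.02.

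**Figure D5:**
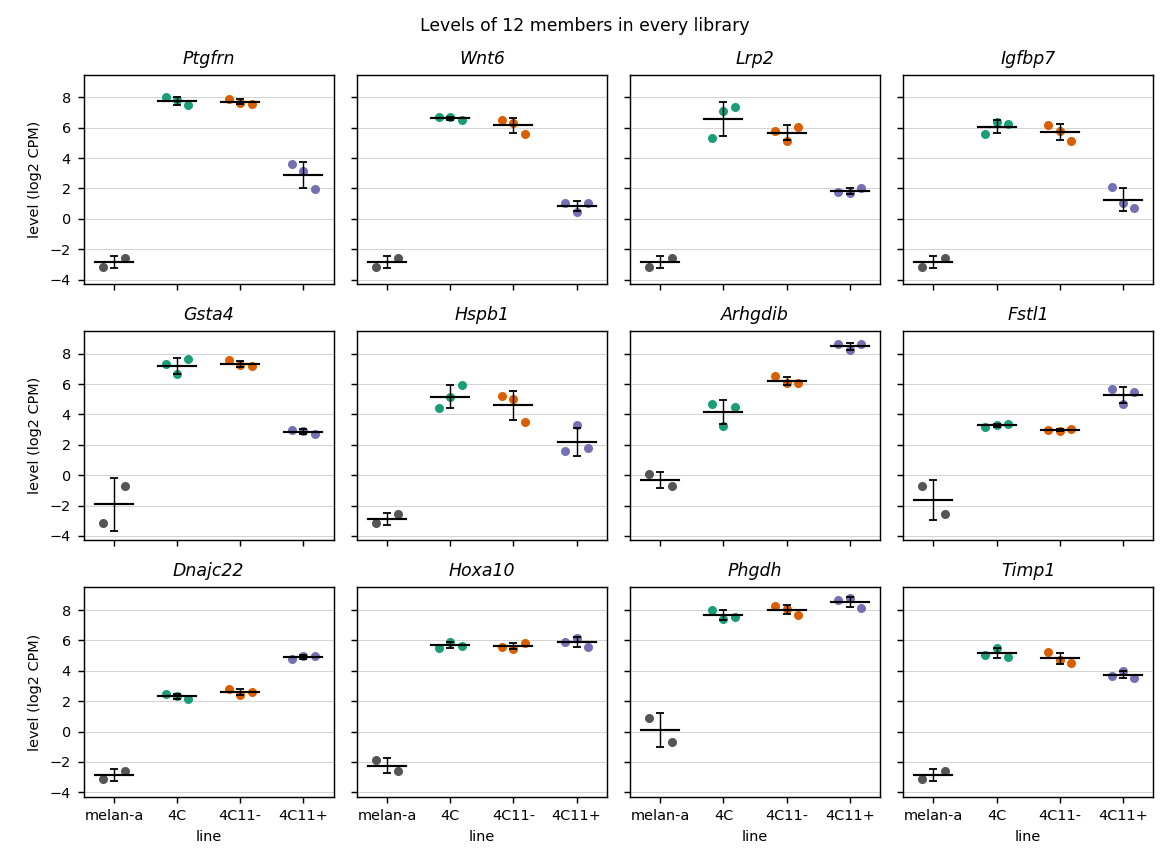
Level (log2 CPM) of 12 members in every library (points), with the mean of each line (bar) and its SD (whisker). Ptgfrn, Wnt6, Lrp2, Igfbp7, Gsta4, Hspb1 and Timp1 are lower in 4C11+ than in the other derived lines, and Arhgdib, Fstl1 and Dnajc22 are higher there. Hoxa10, Phgdh and Timp1 span at most 2 log2 units over the derived libraries.

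Other gene lists, drawn up for cell types and pathways that the samples could hold, gave a background for the gain, with members left out. In the mean of the derived lines against melan-a (limma adjusted p under 0.05), 12 of 17 melanocyte markers were lower and 1 higher, and of 8 neural crest and Schwann cell markers 5 were lower and 2 higher. The 11 fibroblast and mesenchymal markers summed to 2494 to 6136 CPM in melan-a, a range that no derived library exceeded. Of these 11 markers 5 were higher and 2 lower. Of those called higher, Col1a1, the first chain of type I collagen, had a mean of 1.42 log2 CPM in melan-a against 10.87 in 4C and 10.57 in 4C11- but stood at 1.76 in 4C11+, and Col3a1, Acta2, Twist1 and Loxl1 were at or under 3 reads in all 4C11+ libraries, where the rule required members to be above 0. Of 5 keratinocyte and epithelial markers 1 was higher and 1 lower, of 4 endothelial markers 2 were higher and 0 lower, and of 3 leukocyte markers 0 were called. The endothelial markers Cdh5 and Flt1 were at or under 3 reads in all melan-a and all 4C11+ libraries. The filter kept them only through 4C and 4C11-, so a call of lower was all but closed to them. The keratinocyte and epithelial markers summed to 9.34 to 26.6 CPM in melan-a and 7.16 to 19.2 CPM in 4C11+. Their sum was 498 to 687 CPM in 4C and 210 to 304 CPM in 4C11-, a rise that the mean of the derived lines hides. At an unadjusted p under 0.05, limma gave 1 endothelial marker lower, and 0 leukocyte markers higher and 1 lower. The median differences of these 6 lists were, in the order given, -3.36, -1.62, 2.76, -0.48, 1.50 and -0.69 log2 units, against -0.07 over the genes outside the members. With genes at or under 3 reads in melan-a set to 3 reads, the fibroblast median was 1.11 and the endothelial 0.55.

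Because melan-a alone received PMA, genes of its response were counted too. Of 27 phorbol ester and ERK response genes 4 were higher and 2 lower in the derived lines. Of 10 protein kinase C isoforms 0 were higher and 2 lower. By limma at an unadjusted p under 0.05 the counts were 4 higher and 7 lower in the first list and 1 and 3 in the second. Ptgs2, the inducible cyclooxygenase, was at or under 3 reads in melan-a and at 3.64 log2 CPM in 4C, 1.66 in 4C11- and -2.49 in 4C11+. Of 7 germline genes 2 were higher and 1 lower, of 19 imprinted genes 3 and 3, and of 32 interferon-stimulated genes 3 and 1. Among 55 matrix and adhesion genes 10 were higher and 12 lower, and among 46 secreted growth factors and cytokines 13 were higher and 3 lower. In the last list, Ccl2, a monocyte chemoattractant, had means of -2.24, 4.72, 4.79 and 1.49 log2 CPM in the order melan-a, 4C, 4C11-, 4C11+, and Kitl, the ligand of the receptor KIT, of -1.69, 5.64, 4.60 and 1.93. The median differences were -0.40 log2 units for the phorbol ester and ERK response genes, -0.42 for the protein kinase C isoforms, 0.54 for the germline, -0.38 for the imprinted, 0.24 for the interferon-stimulated, -0.28 for the matrix and 0.40 for the secreted genes. The part of PMA in the levels of the members was not tested.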

How the data were processed

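Total RNA of the 4 lines was sequenced from 11 libraries. According to the methods and labels, the authors trimmed the reads with Trimmomatic, aligned them to GRCm38 with STAR, counted them per gene with Rsubread, filtered out genes that did not reach 1 CPM in 4 or more libraries and transformed the counts with voom. What the authors deposited is therefore log2 CPM. The 11 libraries share the same highest value, as after a quantile normalization, a step not given in the sources used here, and whether the counting used strand is not given either. The values were used as deposited. Of 14272 genes, 24 matched no symbol and stayed in the fits.

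The rule for the members was applied to the deposited values. The members and the gene lists were chosen with earlier results of these data known, and 1 gene that the rule also finds and 1 gene of the lists are not reported here. The lowest distinct values of each library were read as steps of 0, 1, 2 and more reads, and a gene was called absent from a line with at most 3 reads in each library, its fold then being a lower bound from the value at 3 reads, averaged over the melan-a libraries. Reads are not independent molecules, so such floors cover counting error only.

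Lines were compared with limma 3.58.1 in R 4.3.3 (line means fitted to the 11 libraries, empirical Bayes with a trend, two-sided, Benjamini-Hochberg over all genes, adjusted p under 0.05), after the fit was tested on simulated data. Tables and plots were made with Python 3.11.15, pandas 2.3.3, NumPy 2.4.6 and matplotlib 3.10.9. Gene positions were taken from GENCODE vM21 and promoter sequences from RefSeq, both on GRCm38.

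Named members were the 30 of largest gap, up to 10 of largest difference in each comparison of derived lines, those of a fixed list, those with a neighbouring member, those at the threshold and the 10 of highest level. These came to 40, and Gm24305, Rab11fip4, Fat2, Gstp2, Hoga1 and Tmem267 were added after their values were seen. From the lists, up to 5 genes of largest difference could be named, and a few others are named, after their values were seen, to account for a count. Other settings tried were a second normalization, a minimum mean level, the replicate number, the variance model, array weights, the gap and each library left out.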

Additional observations from a re-analysis of the deposited data

How the results depend on the processing

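The number of genes gained in all derived lines was 72 with a gap of 2 log2 units and 24 with a gap of 4, and 68 with the mean of the melan-a libraries as the reference. Over the fits without 1 library it ranged from 46 to 112, the highest without melan-a replicate 2, and since leaving out a library can only loosen the rule, no member could be lost. A further quantile normalization or a median shift gave 46, and a mean value of at least 1 gave 45, without Hoxa3.

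Array weights called 13 members between 4C11- and 4C instead of 2, and 36 between 4C11+ and 4C instead of 19. The cause was not tested. Leaving out a library gave 1 to 3 members between 4C11- and 4C, 16 to 24 between 4C11+ and 4C11- and 15 to 22 between 4C11+ and 4C. Where 1 melan-a library was left, it was assumed to vary like the other lines. The genes of the fixed lists called against melan-a numbered 107, and 70 with a mean value of at least 1, which leaves fewer genes to test, and 89 to 117 with a library left out. For the Hox genes outside the members the number was 17, then 5 with that filter, which leaves 5 to test, and 14 to 18 with a library left out. It was 11 with array weights. In these fits 0 Hox genes were lower, an outcome that the filter of the deposited table had all but fixed.

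With the replicate number as a replicate block, 2, 21 and 20 members were called in the 3 comparisons, 107 genes of the lists and 18 Hox genes. The deviations of same-numbered libraries of different lines had a correlation over 0.1 in 8 of 15 pairs (median 0.147, range -0.226 to 0.388). Other pairs of libraries did so in 11 of 30 (median -0.0946, range -0.416 to 0.34). These values do not settle whether the numbers pair the cultures. Under the block 2 of the 44 calls of members were lost, Emilin1 and Hoxa7 between 4C11+ and 4C11-. No difference of a called member reversed in any alternative. Low read counts limit members near the bottom of the scale in 4C11+, where Wnt6, Sall4 and Hoxa11os rest on as few as 4 reads in a library.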

Other observations

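Families of some members were compared after the members were seen, to show whether the gain extended to their relatives. Phgdh was the only member among the 10 genes of serine and one-carbon synthesis. Psat1 and Psph, which catalyse the next steps, were present in melan-a, at means of 8.72 and 6.70 log2 CPM. Of the 9 relatives tested 0 were higher in the mean of the derived lines and 1, Aldh1l2, was lower (limma adjusted p = 0.0229). The melan-a replicates 2 and 3 disagreed, at 7.57 and 9.87 in Psat1 and 6.01 and 7.39 in Psph. All derived libraries of Psat1 (8.18 to 9.54) lay between its melan-a values, so its difference from melan-a could not be resolved. The count of 0 higher therefore does not show that the relatives were unchanged. Arhgdia, the ubiquitous relative of Arhgdib, was at 8.45 in melan-a and 8.46 to 9.32 in the derived lines. Of the relatives of Map1lc3a among LC3 and GABARAP proteins, 0 of 4 were called, with Map1lc3b at 7.18 in melan-a and 6.49 to 6.56 in the derived lines.

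Timp3, another metalloprotease inhibitor, was higher in the derived lines (means of -0.15, 1.70, 1.75 and 3.97 log2 CPM in the order melan-a, 4C, 4C11-, 4C11+), while Reck was lower and Timp2 was not called. Nqo1, a quinone reductase and target of AHR, was at 2.76, 8.01, 8.25 and 6.42 in the same order and was the 1 gene called of 5 AHR partners and targets. Of 15 other glutathione transferase genes 1, Mgst2, was higher and 1, Gsta1, lower in the mean of the derived lines, but 4C11+ stood on the other side of melan-a in both. Mgst2 was at 0.41, 5.37, 5.06 and -1.15 in that order, and Gsta1 at 0.72, -3.44, -3.34 and 3.65. Of 5 other small heat shock proteins 0 were higher and 1, Hspb8, lower, with means of 6.43, 7.37, 7.14 and 0.46, so that only 4C11+ was below melan-a. Of 3 alpha 9 integrin partners and ligands 0 were higher and 1, Spp1, lower. Tnc, which was not called, was at 8.30 in melan-a replicate 2 and -1.42 in replicate 3, so its difference from melan-a could not be resolved. These families were chosen after values were seen, and no explanation was tested. Where limma called 0 genes of a family, an unadjusted p under 0.05 gave 1 small heat shock protein higher, and 0 genes higher of the serine, LC3 and integrin families and 0 lower of the LC3 and AHR families.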
